A study of Homo sapiens with 19 samples.

Results

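The data described here are the RNA and DNA levels of the promoter barcode in the QUASARR-seq plasmids that carry pGAPDH. QUASARR-seq is a reporter assay in which many candidate regulatory elements are read in parallel in 1 pool of plasmids. Each plasmid holds an enhancer barcode (eaBC), the element and a promoter barcode (paBC), and each barcode is counted in RNA and in plasmid DNA. The members were all elements of the pGAPDH promoter barcode table with a DNA signal above 0 summed over replicates, which took in all 3055 elements listed there, of 3422 element names over the series. They came from 1616 loci, here the part of a name before its orientation, with 1525 elements in the orientation named fwd, 1530 in that named rev, and 1439 loci in both. The question put to each element was whether its share of reporter RNA was above or below its share of plasmid DNA, and by how much.

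All libraries were made from K-562, an established human leukaemia line of erythroid and megakaryocytic character that is widely used for reporter assays. The vector was pDEST-QUASARR-luc-gfp, and the plasmid pool combined pGAPDH, pMYC and pAPOBEC3F with elements named CNPL, TRE202, TRE5 and TRE6. Each electroporation used 20 µg of plasmid, 5 of them made up a technical replicate, and the incubation lasted 6 h. The cells of a technical replicate were then combined and divided, 4 parts by cell number for RNA and 1 part for DNA. There were 2 RNA and 2 DNA libraries, numbered replicate 1 and 2. The labels describe 2 technical replicates per biological replicate but do not say which kind the numbers are. The p-values thus rest on the spread between these libraries, pooled in large part over elements, and this spread may be technical. There was no untreated sample, so the background is the DNA of the same pools. The tables come from transient plasmids in 1 cell line, and an element's own chromosomal surroundings are absent.

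A promoter is the DNA at which RNA polymerase II starts a transcript, whereas an enhancer raises transcription from a promoter elsewhere, and many elements can do both. A minimal promoter, such as those named here, is a short core sequence that gives little RNA alone. GAPDH encodes a glycolytic enzyme transcribed in nearly all cells, MYC a transcription factor that drives growth, and APOBEC3F a cytidine deaminase that restricts retroviruses.

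The promoter barcode was read deeply. The pGAPDH reads amounted to 5516308 and 5622101 in the DNA libraries and 9080385 and 10167588 in the RNA libraries, with medians per element of 1376, 1391, 1997 and 2248. The lowest read numbers of any element were 17 and 26 in the DNA libraries and 11 and 24 in the RNA libraries. Reads were inferred from the deposited signals, whose scaling is not stated: the values of a library are whole multiples of 1 step, which was taken as 1 read. Values below are the deposited signals and log2 RNA/DNA, computed for each replicate after 0.5 reads were added. A log2 ratio of 0 therefore means equal scaled levels, not an absence of transcription, because every ratio is relative to the scaling of the pool.

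Replicates differed little against the range between elements. The log2 ratio of an element differed between replicates by a median of 0.066, and by 0.28 or less for 95% of the elements. Across elements, which are not independent replicates, the ratios of replicates 1 and 2 had Pearson's r = 0.977. The widest gap, 1.12, was in TRE5SPNL0001.rev, an element with 11 and 24 RNA reads.

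**Figure D1:**
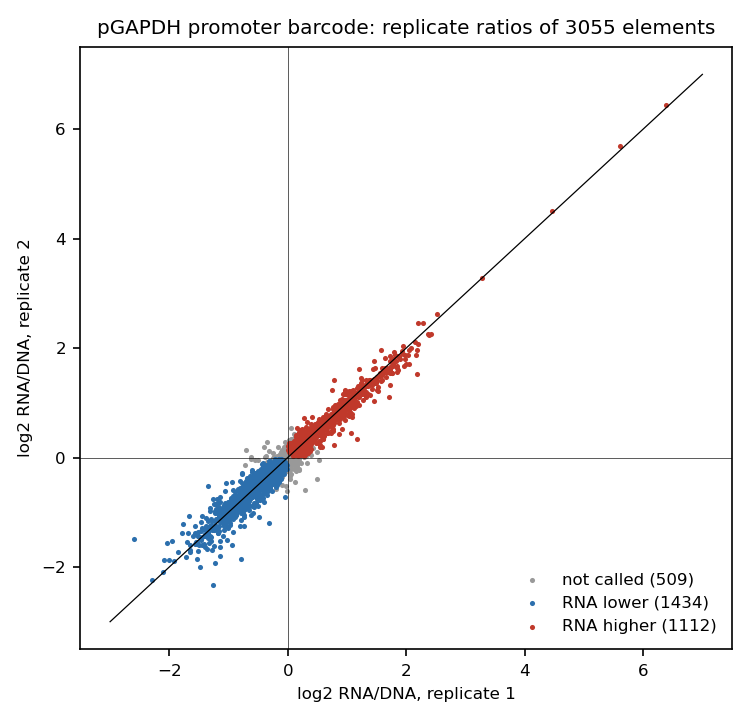
Each point is 1 of 3055 elements, with its log2 RNA/DNA ratio in replicate 1 on the x axis and in replicate 2 on the y axis, coloured by the limma call; the line marks equality. The points follow the line from -2.26 to 6.42, and 4 elements lie above 3.

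Most elements stood off the zero point, but by small amounts. By limma at a Benjamini-Hochberg adjusted p under 0.05, 1112 of 3055 elements (36.4%) had higher RNA than DNA and 1434 (46.9%) lower, so that 83.3% were called. All 1112 and all 1434 had the same sign in both replicates, with no overlap between the 2 RNA and the 2 DNA values. Such separation was common: over all 3055 elements both RNA values lay above both DNA values in 1234 and below them in 1566. The calls rest on the same values, so the separation is no further support for them. The median ratio was -0.07, the middle of the distribution ran from -0.46 to 0.27 (quartiles), and 62.4% of the elements lay within 0.5 of zero on the log2 scale. A difference of at least 1 on the log2 scale was reached by 197 called elements on the higher side (6.45%) and 181 on the lower side (5.92%). On the higher side 16 passed 2 and 4 passed 3, whereas on the lower side 3 passed -2. The distribution was thus broad near zero with a short lower end and a few far higher values.

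The elements nearest to the threshold had small ratios. Just inside it were KNGUT0118.fwd at 0.07 ± 0.041 (SD, n = 2; adjusted p = 0.0455, limma) and KNGAT0110.fwd at -0.23 ± 0.11 (adjusted p = 0.0498, limma). Just outside were TRE5GCLR0099.fwd at 0.20 ± 0.057 (adjusted p = 0.0502, limma) and KNGUT0125.rev at -0.10 ± 0.11 (adjusted p = 0.05003, limma).

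The highest ratio belonged to TRE5GCNC0054.rev. Its signal was 18.4 and 17.3 in the DNA libraries and 1555 and 1516 in the RNA libraries. The log2 ratio was 6.42 ± 0.037 (SD, n = 2), an 85.5-fold excess of RNA (SE 0.051, adjusted p = 4.89e-25, limma). The RNA values lay far above the DNA values in both replicates, and the DNA values rested on 105 and 101 reads. No fwd partner of this locus was among the 3055 elements.

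TRE6_020S0033.rev had the highest RNA signal of the table. It gave 79.4 and 73.7 in DNA against 3884 and 3820 in RNA, a log2 ratio of 5.65 ± 0.058 (SD, n = 2; adjusted p = 1.59e-26, limma), or 50.3-fold. The same locus in the fwd orientation gave 48.3 and 42.4 in DNA and 41.7 and 40.1 in RNA, a ratio of -0.15 ± 0.095 that did not pass (adjusted p = 0.164, limma). The high level thus belonged to 1 orientation, and in the other the RNA values were slightly below the DNA values.

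TRE5GCLR0189.rev ranked next. Its DNA signals of 135 and 131 stood against RNA signals of 2972 and 2958, for a log2 ratio of 4.48 ± 0.029 (SD, n = 2; 22.3-fold, adjusted p = 2.54e-26, limma). Here the fwd partner was also high, at 2.13 ± 0.094 (adjusted p = 1.22e-13, limma), with 19.0 and 20.8 in DNA and 87.4 and 87.3 in RNA. TRE6_060S0005 followed the same pattern: its rev form gave 111 and 101 in DNA and 1086 and 984 in RNA, a ratio of 3.28 ± 0.0017. Its fwd form gave 150.5 and 131 in DNA and 691 and 715 in RNA, a ratio of 2.33 ± 0.18. In both loci the RNA and DNA values of either orientation were well apart.

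After these 4 the ratios fell to 2.57 and then declined gradually. KSSAT0004.rev led this group with 307 and 300.3 in DNA and 1764 and 1848 in RNA, a ratio of 2.57 ± 0.070 (SD, n = 2; adjusted p = 3.04e-22, limma). KSSAT0024.rev, at 264 and 264 in DNA and 1375 and 1251 in RNA, had 2.31 ± 0.099. KSSAT0010.rev had 2.31 ± 0.073 at a lower DNA level of 92.0 and 95.9, with 474 and 459 in RNA. The 3 elements share a name class and had similar ratios at different DNA levels.

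The remaining high elements came from several classes. TRE5GCLR0170.fwd had 219 and 231 in DNA and 1170 and 1103 in RNA, a ratio of 2.34 ± 0.11 (SD, n = 2). TRE5GCNC0171.fwd had 93.4 and 97.9 in DNA and 394 and 393 in RNA, a ratio of 2.04 ± 0.051. Both loci were high in the other orientation too, at 1.61 ± 0.063 and 1.70 ± 0.061. TRE6_HRHR0029.rev, at 26.9 and 28.6 in DNA and 122 and 113 in RNA, had 2.07 ± 0.14. TRE5SPNN0014.rev reached 2.37 ± 0.12 on 71 and 65 DNA reads, with signals of 12.5 and 11.1 in DNA and 61.3 and 61.7 in RNA. In each of them every RNA value exceeded every DNA value. Of the 12 highest called elements, 1 per locus, 9 were in the rev orientation and 3 in fwd.

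**Figure D2:**
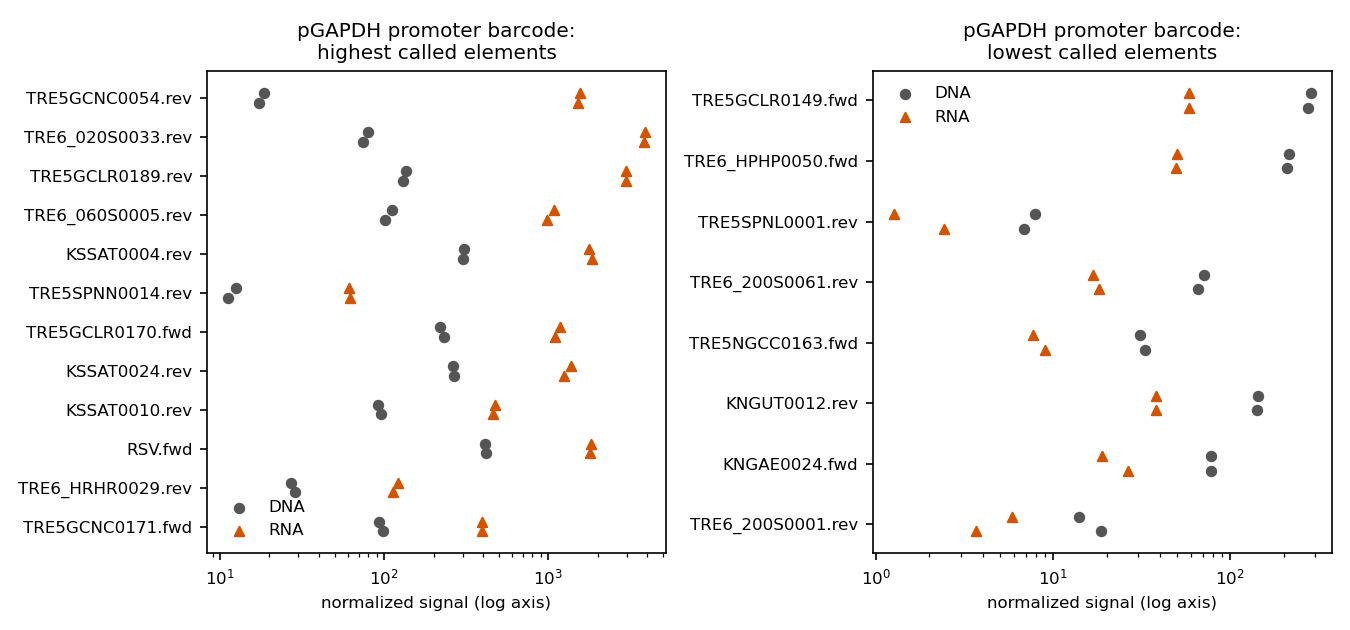
Normalized signal on a log axis in the DNA libraries (circles) and RNA libraries (triangles) of replicates 1 and 2, for the 12 highest (left) and 8 lowest (right) called elements, 1 per locus. The RNA and DNA points do not overlap in any of them, and the pairs of replicates lie widest apart in TRE5SPNL0001.rev and TRE6_200S0001.rev.

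The 3 elements outside the lettered or numbered name classes were named RSV and CMV584, names that the labels do not expand. RSV.fwd gave 413 and 415 in DNA and 1823 and 1787 in RNA, a ratio of 2.12 ± 0.026 (SD, n = 2; adjusted p = 7.85e-22, limma). It ranked 12th, so that 11 elements of the table had a higher ratio. RSV.rev gave 571 and 566 in DNA and 1112 and 1057 in RNA, a ratio of 0.93 ± 0.044 (adjusted p = 6.68e-16, limma). CMV584.rev was on the other side, with 156 and 149 in DNA, 125 and 127 in RNA and a ratio of -0.28 ± 0.065 (adjusted p = 1.07e-04, limma). RSV RNA exceeded DNA in both orientations and both replicates, more so in fwd, while CMV584.rev RNA was below its DNA in both replicates.

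At the other end, TRE5GCLR0149.fwd had the lowest ratio. Its DNA signals were 286 and 275 and its RNA signals 58.5 and 58.4, a log2 ratio of -2.26 ± 0.040 (SD, n = 2; adjusted p = 1.50e-17, limma), with DNA 4.79-fold above RNA. TRE6_HPHP0050.fwd was close to it, with 214 and 209.6 in DNA, 49.8 and 49.2 in RNA and a ratio of -2.10 ± 0.010. These values rested on 435 to 1629 reads per library, so their distance from zero was large against the counting error as well as against the replicate spread. In the rev orientation the same loci had ratios of only -0.42 ± 0.019 and -0.50 ± 0.068.

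Other low elements differed in how well they were measured. KNGUT0012.rev had 144 and 141 in DNA and 38.1 and 37.9 in RNA, a ratio of -1.90 ± 0.020 (SD, n = 2). TRE6_200S0061.rev had 71.5 and 65.9 in DNA and 16.7 and 18.0 in RNA, a ratio of -1.98 ± 0.16. TRE5NGCC0163.fwd had 31.1 and 33.1 in DNA and 7.67 and 9.02 in RNA, a ratio of -1.94 ± 0.10. Replicates of these 3 elements lay close together. KNGAE0024.fwd had 77.4 and 78.2 in DNA and 18.8 and 26.5 in RNA, for -1.80 ± 0.34. TRE5SPNL0001.rev (-2.04 ± 0.79, adjusted p = 1.74e-05, limma) and TRE6_200S0001.rev (-1.80 ± 0.76, adjusted p = 9.41e-07, limma) had the widest replicate spread. They rested on 11 and 24 RNA reads and on 51 and 36 RNA reads, yet both RNA values were below both DNA values in each.

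By name, the elements fall into 29 classes that share their first letters, whose meaning the labels do not give. Of these, 22 classes held at least 20 elements each and 2992 elements in all. The median ratio was above 0 in 7 of the 22 and below 0 in 15, beside a median over all elements of -0.07. Relative to that median 13 classes were above it: TRE5GCCC, KUUUT, KSUUT, TRE5GCNC, TRE6_020S and TRE6_060S, with medians from -0.07 to -0.03, changed sign with that choice. The medians of replicates 1 and 2 differed by at most 0.10 in any of the 22 classes.

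Among these 22 classes KSSAT had the highest median, 0.72 over 127 elements (quartiles 0.38 and 1.23). In it 110 elements were higher in RNA (86.6%, against 36.4% of all elements) and 5 lower, and 47 were higher by at least 1 on the log2 scale. Its range nonetheless ran from KSSAT0138.fwd at -1.33 ± 0.022 (SD, n = 2) to KSSAT0004.rev at 2.57. KSUAT came near to it, with a median of 0.44 over 129 elements, 89 of them higher and 24 lower, and KSUAT0058.fwd highest at 2.01 ± 0.063. KSUUT, whose name shares the first letters, had a median of -0.03, with 42 of 128 elements higher and 60 lower. These shares, 32.8% and 46.9%, were near the 36.4% and 46.9% of all elements.

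The 3 classes whose names begin with KUU were near zero. KUUAE had a median of 0.11, with 91 of 167 elements higher and 53 lower. KUUUT (-0.03) had 56 of 149 higher and 68 lower, and KUUAT (-0.09) had 50 of 152 higher and 73 lower. Those shares, 37.6% and 45.6% in KUUUT and 32.9% and 48.0% in KUUAT, were near those of all elements (36.4% and 46.9%). KUUAE had 54.5% higher and 31.7% lower. Single elements of these classes still reached 1.67 ± 0.061 (KUUAE0037.rev), 1.33 ± 0.031 (KUUAT0015.fwd) and 1.25 ± 0.088 (KUUUT0043.fwd).

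The 3 classes whose names begin with KNG lay below zero. Over their 477 elements the median was -0.29, with 61 higher and 318 lower in RNA (66.7%, against 46.9% of all elements). KNGAE had a median of -0.33, KNGAT of -0.29 and KNGUT of -0.23. No element of the 3 was higher by 1 or more on the log2 scale, while 32 were lower by that much. The latter were 6.67%, 6.62% and 6.83% of KNGAE, KNGAT and KNGUT, near the 5.92% of all elements. The highest was KNGAT0032.rev at 0.59 ± 0.018 (SD, n = 2), and the lowest KNGUT0012.rev at -1.90.

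Among the TRE5 names, TRE5GCLR had the highest median of a class of 20 or more. It was 0.13 over 250 elements, 128 of them higher and 74 lower, and the class held both TRE5GCLR0189.rev and the lowest element of the table, TRE5GCLR0149.fwd. TRE5GCCC (median -0.03) had 103 of 254 elements higher and 116 lower. TRE5GCNC (median -0.05) had 105 of 278 higher and 130 lower. It also held the highest element of the table, but 1 value cannot move a median over 278 elements. The shares higher and lower in TRE5GCCC (40.6% and 45.7%) and TRE5GCNC (37.8% and 46.8%) were near those of all elements (36.4% and 46.9%). TRE5NGCC lay lower, at a median of -0.45, with 26 of 264 elements higher and 195 lower (73.9%). As in the KNG classes, no TRE5NGCC element was higher by 1 or more, and 33 were lower by that much; the highest was TRE5NGCC0011.fwd at 0.93 ± 0.025.

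Among classes of at least 20 elements, the lowest medians were in classes with little plasmid. TRE5SPON had a median of -0.65 (2 of 37 elements higher, 27 lower), TRE5SPNN of -0.64 (10 of 59 higher, 43 lower) and TRE6_200S of -0.59 (4 of 38 higher, 26 lower). Their median DNA signals in replicate 1 were 57.1, 56.5 and 52.5, against 242 over all elements. TRE6_HRHP, TRE6_HRHR and TRE6_HPHP had DNA medians of 66.9, 66.7 and 77.8 and ratio medians of 0.45, 0.11 and 0.30. In those 3 classes 47 of 71, 31 of 75 and 29 of 52 elements were higher (66.2%, 41.3% and 55.8%, against 36.4% of all elements). TRE6_HRHP0040.fwd (2.02 ± 0.21) and TRE6_HPHP0054.fwd (2.00 ± 0.064) were near the top. With all elements in 4 groups of rising DNA reads, the median ratio was -0.19, -0.08, -0.11 and 0.02. The part of the plasmid level in the class medians was not tested.

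TRE6_020S and TRE6_060S had ratios near zero at higher DNA levels. Their medians were -0.06 and -0.07, with 46 of 123 and 46 of 114 elements higher and 59 and 54 lower. That was 37.4% and 40.4% higher and 48.0% and 47.4% lower, near the shares of all elements (36.4% and 46.9%). Their highest elements were TRE6_020S0033.rev and TRE6_060S0005.rev, the latter with its fwd form also high. The number-named class had a median of -0.08 over 48 elements, from 56194.rev at -1.36 to 53604.fwd at 0.87 ± 0.073. In it 17 were higher and 23 lower (35.4% and 47.9%), also near the shares of all elements. None of its elements was higher by 1 or more, beside 6.45% of all elements. By contrast, 5 were lower by that much (10.4%, beside 5.92% of all elements).

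**Figure D3:**
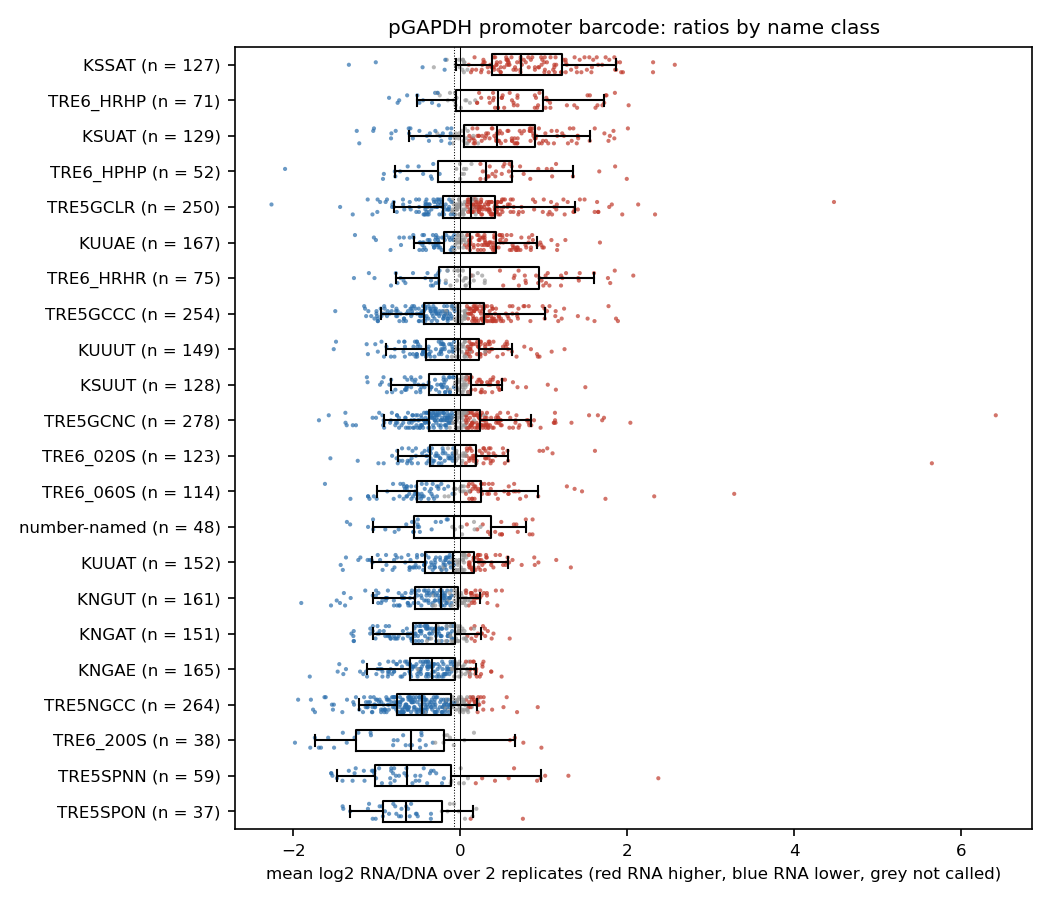
Mean log2 RNA/DNA over 2 replicates for the 22 name classes of at least 20 elements, ordered by median; dots are elements coloured by call, boxes span the quartiles, whiskers the 5th to 95th percentiles, and the dotted line is the median of all 3055 elements. KSSAT has the highest median (0.72) and TRE5SPON the lowest (-0.65), and the 4 elements above 3 lie in TRE5GCNC, TRE6_020S, TRE5GCLR and TRE6_060S, whose boxes are close to zero.

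The strongly higher and strongly lower elements came from different classes in part. Of the 197 elements higher by at least 1, KSSAT held 47 (37.0% of its elements, beside 6.45% of all elements), TRE5GCLR 27 (10.8%), KSUAT 25 (19.4%), TRE6_HRHP 18 (25.4%) and TRE6_HRHR 16 (21.3%). TRE5GCCC held 15, or 5.91% of its elements, near the share of all elements. Of the 181 lower by at least 1, TRE5NGCC held 33 (12.5% of its elements, beside 5.92% of all elements), TRE5SPNN 16 (27.1%) and TRE6_200S 13 (34.2%).

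Strong ratios were also more frequent at low plasmid levels. Among the 765 elements with a mean of 22 to 576 DNA reads, 83 were higher and 92 lower by at least 1, and the 5th and 95th percentiles of the ratio were -1.32 and 1.40. Among the 764 elements with 2556 DNA reads or more, 21 were higher and 11 lower by that much, and the percentiles were -0.79 and 0.73. The median SD between replicates fell from 0.093 to 0.030 between the same groups. DNA is the denominator of the ratio, and its part in the wider ratios at low plasmid levels was not tested. The share of elements called was 77.1% among the 764 elements with the fewest reads over the 4 libraries and 87.7% among the 764 with the most.

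The ratio differed between the 2 orientations of most loci. The fwd and rev forms are separate elements with their own plasmid levels, such as 71 and 873 reads in DNA replicate 1 at KSUAT0092. The part of such differences was not tested. The fwd minus rev difference was tested at 1439 loci by limma on the per-replicate differences, and 1053 (73.2%) passed, 580 (40.3%) with fwd higher and 473 (32.9%) with rev higher. In 1050 of the 1053 both replicates had the same sign. The median absolute difference was 0.32 on the log2 scale, against a median SD between replicates of 0.068, and the median signed difference was 0.04. A difference of at least 1 was called at 49 loci with fwd higher and 49 with rev higher. These p-values lean on a spread pooled over loci (prior degrees of freedom 737), since 2 replicates give 1 degree of freedom per locus.

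Most loci nevertheless kept their side of zero. Both orientations were called higher at 343 loci and both lower at 440. At 236 loci (16.4%) the orientations were called on opposite sides, 133 with fwd higher and rev lower and 103 the other way. The fwd minus rev difference was called at all 236, which is no added support, because the same ratios picked these loci. Both sides were at least 0.5 from zero at only 9 of these loci. At 361 further loci 1 orientation was called and the other was not, and at 59 neither was.

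The largest orientation difference was that of TRE6_020S0033 described above, -5.80 ± 0.037 (SD, n = 2). TRE5SPNR0019 came next, with fwd at 21.1 and 18.0 in DNA and 6.18 and 7.70 in RNA and rev at 84.6 and 87.5 in DNA and 264 and 259 in RNA. Its fwd form was thus lower (-1.49) and its rev form higher (1.60), a difference of -3.09 ± 0.44. At TRE5GCNC0117 the fwd form (245 and 245 in DNA, 174 and 182 in RNA) was lower and the rev form (44.6 and 47.0 in DNA, 143 and 144 in RNA) higher, a difference of -2.11 ± 0.090. KSSAT0004 and TRE5GCLR0189 were higher in both orientations and still differed by -2.04 ± 0.074 and -2.35 ± 0.12.

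Differences toward fwd reached about 2. TRE5SPNR0009 had fwd signals of 116 and 102 in DNA and 168 and 166 in RNA, and rev signals of 14.7 and 12.9 in DNA and 5.84 and 4.36 in RNA. The difference was 2.06 ± 0.28 (SD, n = 2), with fwd higher than zero and rev lower. At TRE5GCLR0027 (1.82 ± 0.028), KSUAT0092 (1.80 ± 0.037) and TRE6_HRHP0073 (1.59 ± 0.098) the fwd form was higher at 1.79, 1.78 and 1.71, while the rev form, at -0.04, -0.02 and 0.12, did not pass. TRE5SPNL0001 (1.48 ± 0.83), with both forms lower, had the widest replicate spread of the 5, at 2.06 in replicate 1 and 0.89 in replicate 2. The largest adjusted p of the 10 loci named here was 9.18e-06 (limma), and both replicates had the same sign at all 10. RSV, with a difference of 1.19, was among the 49 loci with fwd higher by at least 1.

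**Figure D4:**
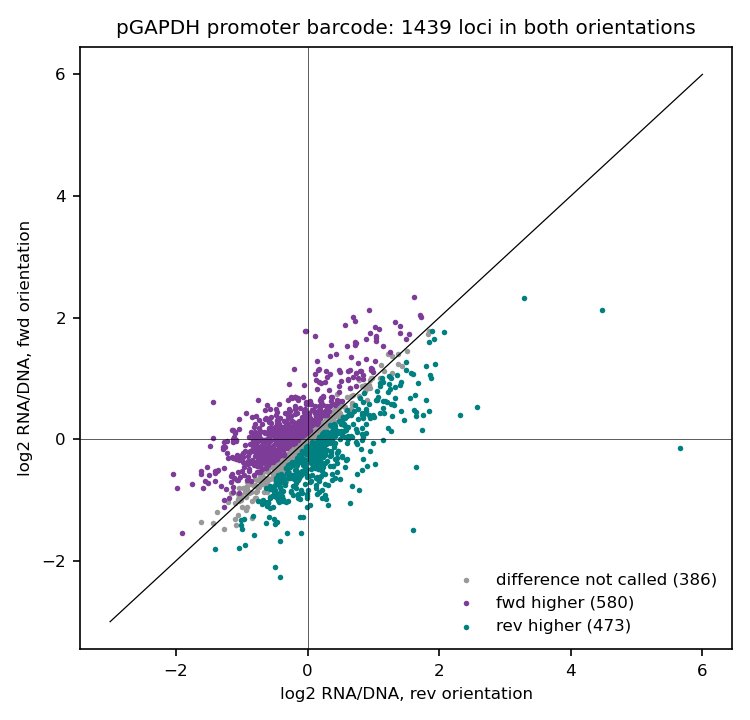
Mean log2 RNA/DNA of each of 1439 loci in the rev (x axis) and fwd (y axis) orientation, coloured by the call on their difference; the line marks equality. The difference was called at 580 loci above the line and 473 below it, and TRE6_020S0033 lies alone at the right, at 5.65 in rev and -0.15 in fwd.

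Over all 1439 loci both orientations were higher at 23.8% and both lower at 30.6%. In KSSAT both orientations were higher at 47 of 60 loci and both lower at 1, and in KSUAT at 36 and 6 of 63. In TRE5NGCC both were lower at 74 of 129 loci and both higher at 5, and in KNGAE at 41 and 3 of 81. The fwd form was higher at 70 and the rev form at 36 of 136 TRE5GCNC loci, beside 40.3% and 32.9% of all loci. In TRE6_HPHP fwd was higher at 6 and rev at 11 of 21 loci. The numbers were 9 and 14 of 30 in TRE6_HRHP and 7 and 13 of 29 in TRE6_HRHR. The number-named class had fwd higher at 12 and rev at 4 of 20 loci. Its orientations were called on opposite sides at 9 loci, beside 16.4% of all loci. Whether classes differ in orientation was not tested.

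Averaged over both orientations, TRE5GCLR0189 (3.31), TRE6_060S0005 (2.80), TRE5GCLR0170 (1.97) and TRE6_HRHR0029 (1.92) were the highest loci with both forms called higher. The lowest with both forms called lower were KNGUT0012 (-1.73), KNGAE0024 (-1.60), TRE5NGCC0106 (-1.49) and TRE5NGCC0153 (-1.41). At TRE5NGCC0106 the forms, at -1.36 and -1.63, did not differ beyond the threshold (adjusted p = 0.205, limma).

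The same plasmid pool gave promoter barcode tables for pMYC and pAPOBEC3F, which came from the same libraries but were scaled separately. To set the pGAPDH ratios beside them, each ratio was centred on the median of the shared elements, and the difference was tested with limma over the 2 replicates. The ratios ranged less widely with pGAPDH. Over 2484 shared elements the 5th and 95th percentiles were -0.92 and 1.10 for pGAPDH and -1.14 and 2.77 for pMYC, and over 2609 shared elements -0.94 and 1.16 for pGAPDH and -1.23 and 3.55 for pAPOBEC3F. Both comparisons use the same pGAPDH values.

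Against pMYC, pGAPDH was relatively higher for 736 elements (29.6%) and lower for 1069 (43%). Against pAPOBEC3F, 832 elements (31.9%) were relatively higher and 1228 (47.1%) lower. Differences of at least 1 were mostly downward, 507 against 14 for pMYC and 799 against 38 for pAPOBEC3F. Without the centring, which moves all differences by -0.30 and -0.28, the counts were 195 higher and 1416 lower for pMYC and 449 higher and 1441 lower for pAPOBEC3F. Uncentred ratios keep the separate scaling of each promoter. In RNA replicate 1, 1 read stood for a signal of 0.114 with pGAPDH, 0.687 with pMYC and 1.01 with pAPOBEC3F. In DNA replicate 1 it stood for 0.176, 0.178 and 0.174. Counts without centring therefore depend on that scaling and are no independent check of direction. In plain reads, without the step, all differences would be higher, because the RNA step of pGAPDH is the smallest. No test was run on that scale.

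KSSAT, KSUAT and TRE6_HRHP, high with pGAPDH, stood higher still above the median with the other promoters. In KSSAT 106 of 110 elements were relatively lower with pGAPDH than with pMYC and none higher, with a median difference of -1.57, and 113 of 117 lower than with pAPOBEC3F, with a median of -2.25. KSUAT followed with 83 of 103 and 101 of 115 lower (medians -1.27 and -1.97). TRE6_HRHP had 38 of 47 and 39 of 47 lower (medians -1.46 and -2.19). On the deposited scaling without centring these counts had the same direction, with 110 of 110 and 115 of 117 KSSAT elements lower. Neither scale gives the promoters a common zero point. In plain reads the differences would move upward, so the direction in these classes holds only relative to the scale used.

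The KNG classes, low with pGAPDH, lay further below the median with the other promoters. Relative to pMYC, 104 of 150 KNGAE, 80 of 113 KNGAT and 109 of 138 KNGUT elements were relatively higher with pGAPDH. Relative to pAPOBEC3F the numbers were 122 of 147, 98 of 128 and 118 of 141. On the deposited scaling without centring they fell to 35, 27 and 38 for pMYC and 68, 72 and 80 for pAPOBEC3F, still above the numbers that were lower. TRE5NGCC had 80 of 205 elements relatively higher and 19 lower against pMYC, and without centring 26 higher and 50 lower, so its direction rested on the centring.

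The enhancer barcode of the same pGAPDH plasmids was shared by 3050 elements. Its centred ratios spanned a narrower range, with 5th and 95th percentiles of -0.40 and 0.63 against -0.96 and 1.20 for the promoter barcode. The promoter barcode was relatively higher for 896 elements (29.4%) and lower for 888 (29.1%), or 706 and 1048 without centring. In KSSAT 98 of 127 elements were relatively higher at the promoter barcode and 7 lower, with a median difference of 0.57, and in KSUAT 83 and 17 of 129. TRE5NGCC had 26 of 263 higher and 117 lower, and TRE6_200S 2 of 38 higher and 19 lower. On the deposited scaling without centring these directions were the same, with 88 KSSAT elements higher and 131 TRE5NGCC elements lower. KUUAE, TRE6_020S, TRE5GCNC and the number-named class had median differences of 0.06, 0.01, 0.02 and 0.04. These changed sign without the centring.

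**Figure D5:**
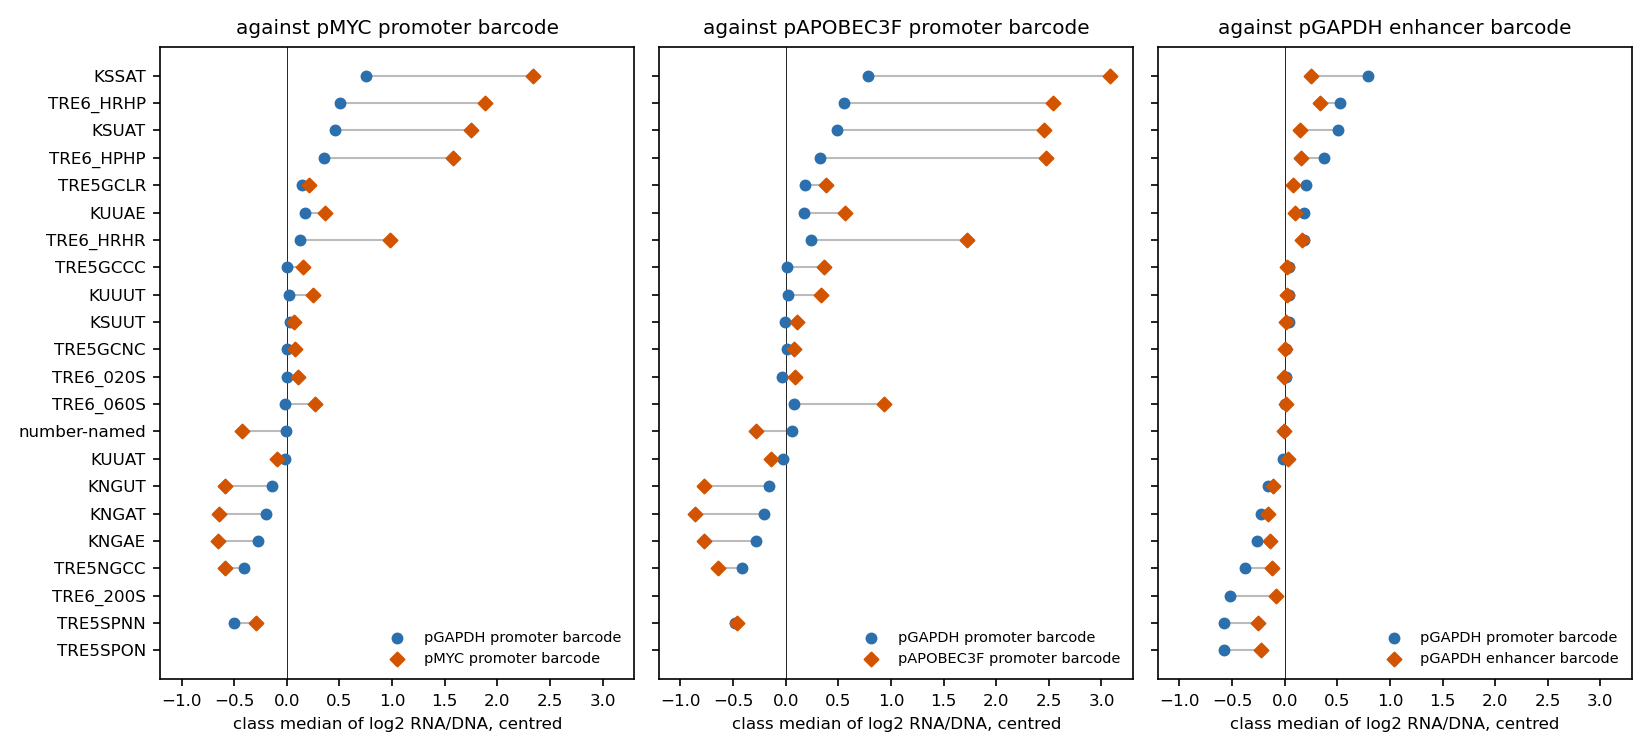
Class medians of log2 RNA/DNA, each table centred on the median of the shared elements, for the pGAPDH promoter barcode (circles) beside the pMYC and pAPOBEC3F promoter barcodes and the pGAPDH enhancer barcode (diamonds), for classes with at least 20 shared elements. KSSAT lies at 0.75 with pGAPDH and 2.34 with pMYC, at 0.78 and 3.08 against pAPOBEC3F, and at 0.79 and 0.25 against the enhancer barcode.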

How the data were processed

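RNA and plasmid DNA copies of both barcodes were sequenced from K-562 cells with reads of 150 bp. The tools fastp, edgeR and limma and the build hg38 are named, without versions, in the submitters' processing notes; the aligner and barcode matching are not given in the sources used here. The deposited signal columns have no stated scaling. All their values were whole multiples of 1 step per column (tolerance 0.02), and the step was taken as 1 read. The log2 fold changes, p-values and score columns (t and B) of the pGAPDH promoter table are the authors' limma output, per the file headers. They were used only as an alternative.

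Ratios were computed as log2 of reads plus 0.5, times the step, and fitted with limma 3.58.1 (R 4.3.3; lmFit, eBayes with a trend). All 3055 elements passed a mean of at least 10 reads. Called means a Benjamini-Hochberg adjusted p under 0.05. The main fit compared 2 RNA with 2 DNA libraries. Its prior degrees of freedom were 16.1, so its p-values lean on a spread pooled over elements. The other comparisons were fitted on the 2 per-replicate differences, whose prior degrees of freedom were 10.8 or more. Intervals and SD cover 2 libraries, and PCR reads are not independent molecules, so intervals cover counting error only. By the labels, RNA and DNA of a replicate come from a split cell pool and are paired; their replicate deviations had a correlation of -0.054 over 3055 elements. Scripts were tested on simulated data.

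The text names a part of the following: from called elements, 1 per locus, the top 12 and bottom 8, the extremes of each class of at least 20, elements outside the classes, the 5 largest differences either way of each comparison, the 4 highest and lowest loci, and elements next to the threshold. Members, classes and comparisons were chosen with earlier results of these data known. Alternatives were other tests, zero points, reads added, filters, thresholds and left-out libraries. The 4 tables of other promoters, sets or read-outs were not used. Python 3.11.15, pandas 2.3.3 and matplotlib 3.10.9 were also used.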

Additional observations from a re-analysis of the deposited data

Results flagged for a closer look

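The pGAPDH promoter barcode was set beside pMYC, pAPOBEC3F and the pGAPDH enhancer barcode, and the 2 called elements that differed most in either direction are given here (differences of centred log2 ratios, mean ± SD, n = 2 replicates, tested with limma).

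Relative to pMYC, KNGAT0110.rev was higher with pGAPDH by 2.06 ± 0.041 and KUUAE0093.fwd by 2.04 ± 0.12. Both were close to zero with pGAPDH, at log2 RNA/DNA of -0.09 and -0.41, and low with pMYC, at -1.85 and -2.15. The pMYC value of KUUAE0093.fwd rests on 18 and 24 RNA reads. In the other direction KSSAT0014.fwd differed by -4.30 ± 0.43, with -0.16 for pGAPDH and 4.44 for pMYC, and its pGAPDH value rests on 41 and 62 DNA reads. TRE5SPNL0001.rev differed by -4.15 ± 0.92, with -2.04 for pGAPDH and 2.40 for pMYC.

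Relative to pAPOBEC3F, KSSAT0064.fwd was higher with pGAPDH by 4.56 ± 1.1 and 54773.rev by 1.62 ± 0.39. KSSAT0064.fwd had 0 and 1 RNA reads with pAPOBEC3F, where the ratio over both replicates was -4.09 on the log2 scale with a counting interval (exact Poisson, 95%) from -9.40 to -1.62, against 0.97 with pGAPDH. 54773.rev had 19 and 16 RNA reads with pAPOBEC3F. The largest differences downward were -4.79 ± 0.12 at KSSAT0014.fwd, the element named above for pMYC, and -3.84 ± 0.041 at TRE5SPNR0019.rev, which was high with pGAPDH (1.60) and higher with pAPOBEC3F (5.72).

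Relative to the enhancer barcode, TRE6_020S0033.rev and TRE5GCNC0054.rev were higher at the promoter barcode by 5.72 ± 0.36 and 5.54 ± 0.45. The enhancer ratios of these elements were 0.00 ± 0.40 and 0.95 ± 0.43, the latter on 18 and 24 DNA reads. TRE5GCCC0179.rev and CMV584.rev differed by -2.48 ± 0.15 and -2.38 ± 0.041: their promoter ratios were -0.41 and -0.28 and their enhancer ratios 2.13 and 2.17. The enhancer value of TRE5GCCC0179.rev rests on 30 and 31 DNA reads. All 12 differences had the same sign in both replicates.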

How the results depend on the processing

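Under the alternatives run on single elements, no RNA/DNA ratio of the 12 highest, the 8 lowest, the elements outside the classes or the extremes of a class of at least 20 changed sign. Most were picked for large ratios, and the smallest in size was -0.28 (CMV584.rev). The zero-point shifts of 0.073 and -0.039 could not turn any of them. Values near zero can change sign with the zero point, since centring on the median of all elements adds 0.073 to every ratio: this turned 6 class medians. The counts of RNA over DNA stayed within 1.5 times the main ones under other tests, zero points, reads added and read filters, between 923 and 1275 higher and 1259 and 1442 lower. With the replicate block 1113 were higher and 1428 lower, and the block changed no count by over 1.5 times. Leaving out 1 library gave 1036 to 1100 higher and 1346 to 1414 lower. The authors' deposited table gave 1105 higher and 1420 lower of 3044 elements.

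A required log2 difference of at least 1 left 197 higher and 181 lower for RNA over DNA, 49 and 49 for fwd minus rev, 14 and 507 against pMYC, 38 and 799 against pAPOBEC3F, and 101 and 102 against the enhancer barcode. Without centring, relatively higher elements numbered 195 against pMYC and 449 against pAPOBEC3F, because all differences shift together. Relative to the median of all elements 13 classes lay above it rather than 7. eBayes without a trend was added for the other comparisons after the data were seen. The edgeR alternatives were not run, because the deposited values could not be verified as counts. Single replicates leave no residual degrees of freedom, so the orientation and table differences without a replicate are values with no test. All kept their sign, but they were picked as the largest differences. Elements under 50 mean reads, 9 in all, are the least certain.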
